A study of Mus musculus with 12 samples.

Results

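The levels of 7 genes that mark tissue lying next to the cortex were followed in each mouse: Adora2a, Ppp1r1b, Penk and Rgs9, which mark the striatum, and Ttr, Folr1 and Kl, which mark the choroid plexus. They were chosen by symbol, as a measure of neighbouring tissue taken along when the cortex was dissected, and all 7 were found among the 17202 genes of the table of normalized counts. RNA came from the cortex of male C57Bl6 mice of 16 weeks, crossed with the Thy1-YFP line, with 3 mice in each of 4 groups. VEH-WT and VERCUR-WT mice were wild-type, and VEH-CD and VERCUR-CD mice carried the heterozygous complete deletion from Gtf2i to Fkbp6, a model of Williams–Beuren syndrome. VERCUR mice drank curcumin, a phenol of turmeric, at 60 mg/kg/day together with verapamil, a calcium channel blocker, at 10 mg/kg/day, for 1 month from an age of 8 weeks, whereas VEH mice drank vehicle. These are the ages and doses of the labels, which call the VEH mice untreated and whose 1 month does not fill the time between both ages; the methods of the study give a lower verapamil dose, an earlier age at the end and a longer treatment.

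The striatum lies directly under the cortex, and most of its cells are medium spiny neurons. One class of these carries the dopamine D2 receptor, the adenosine A2a receptor encoded by Adora2a and the opioid peptide precursor encoded by Penk. The other class carries the dopamine D1 receptor and substance P, the product of Tac1, and both classes share DARPP-32, the phosphatase inhibitor encoded by Ppp1r1b, and RGS9, which shortens signaling by G proteins. The choroid plexus is an epithelium in the brain ventricles that makes the cerebrospinal fluid. It produces transthyretin (Ttr), a carrier of thyroid hormone, takes up folate through the receptor encoded by Folr1 and expresses klotho (Kl). Ppp1r1b and Penk are also expressed in neurons of the cortex itself.

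In the GENCODE M21 annotation of GRCm38, the striatal markers lie on separate stretches of the genome: Adora2a at chr10:75316877-75334784 on the plus strand, Ppp1r1b at chr11:98348404-98357796 on the plus strand, Penk at chr4:4133531-4138819 on the minus strand and Rgs9 at chr11:109225355-109298129 on the minus strand. Kl lies at chr5:150952607-150993817 on the plus strand. Folr1, at chr7:101858331-101870788 on the minus strand, overlaps Anapc15 on the plus strand, and since it is not stated that strand was used in counting, reads of both genes cannot be told apart in the overlap. All 7 are protein-coding, and a value counts reads over the whole gene. RefSeq's table of promoters, which is on GRCm38.p6, held 2 of the 7 genes, Rgs9 and Kl. Because Rgs9 was among the markers that moved together from mouse to mouse, the 250 bases before its RefSeq start, chr11:109298182-109298431 on the minus strand, are shown from 5′ to 3′, with a TATAAA motif in capitals.
Rgs9: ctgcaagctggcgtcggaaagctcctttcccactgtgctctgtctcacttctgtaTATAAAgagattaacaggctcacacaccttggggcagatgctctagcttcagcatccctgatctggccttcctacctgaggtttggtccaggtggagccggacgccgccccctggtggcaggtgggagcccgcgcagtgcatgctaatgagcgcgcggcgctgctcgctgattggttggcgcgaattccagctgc
The motif TATAAA was searched on both strands and begins at base 56 of this window, whose base 250 lies next to the start. Whether the motif acts in this promoter was not tested. It occurs on either strand in 12.4% of the 32851 promoter windows of the table, and TGACG, the core of the site for cAMP-responsive factors, occurs in 17.8% of them and was not found in the Rgs9 window on either strand.

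Between 40290000 and 56480000 reads per mouse were counted, as recovered from the steps between low values, and the normalized counts summed to between 47430000 and 50770000 per mouse. Genes of the deleted region followed the genotype labels. Gtf2i had normalized counts of 11579 to 12750.4 in the 6 WT mice and of 5916 to 6729 in the 6 CD mice, and the groups did not overlap for Limk1, Baz1b and Clip2 either. Nothing in the labels states that same-numbered mice share a litter or day, and p values measure the spread between these mice. In bulk RNA, fewer cells of a type and less RNA per cell cannot be told apart.

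Per kb of exonic length, which allows genes to be compared, the striatal markers stood well above the choroid plexus markers. The mean normalized count per kb over 12 mice was 3246 for Ppp1r1b, 3014 for Penk, 279 for Adora2a and 232 for Rgs9, compared with a median of 159.8 over all genes. The ranges of Ppp1r1b (1446 to 5738 per kb) and Penk (1236 to 5904 per kb) overlapped almost fully. The same was true of Adora2a (30.5 to 682 per kb) and Rgs9 (70.2 to 489 per kb), so the ranges over mice did not separate either pair of neighbours. Within single mice the genes could still differ. Adora2a had 682 and Rgs9 486 per kb in VEH-CD mouse 1, compared with 30.5 and 70.2 in VERCUR-CD mouse 2. Differences within mice were not tested. The choroid plexus markers were lower, with 17.4 per kb for Ttr, 8.15 for Kl and 4.58 for Folr1. These levels exceeded those of 15.4%, 7.30% and 3.11% of genes, respectively, whereas Ppp1r1b and Penk exceeded 96.2% and 95.9%. Ttr and Kl overlapped in their ranges per kb (4.87 to 64.6 and 5.57 to 12.3), as did Kl and Folr1 (2.09 to 6.34).

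Adora2a, the A2a receptor gene of the D2 class of striatal neurons, varied more between mice than any other of the 7 markers. Its normalized count was 692, 578 and 1622 in VEH-WT mice 1 to 3, and 2089, 635 and 620.5 in VEH-CD mice 1 to 3. It was 112, 179 and 2080.3 in VERCUR-WT mice 1 to 3, and 1435, 93.5 and 106 in VERCUR-CD mice 1 to 3. In every group, therefore, 1 mouse stood far above the others: VEH-WT mouse 3, VEH-CD mouse 1, VERCUR-WT mouse 3 and VERCUR-CD mouse 1. The remaining mice split by treatment, with the 4 VEH mice between 578 and 692 and the 4 VERCUR mice between 93.5 and 179. The mice thus fell into 3 separate sets of 4, with a 3.24-fold gap between the lowest and the middle set and a 2.08-fold gap between the middle and the highest. The highest mouse exceeded the lowest 22.3-fold, and the fewest reads behind a value were 94, in VERCUR-WT mouse 1.

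Rgs9, the striatal regulator of G protein signaling, placed the mice in the same 3 sets. Its normalized count was 1241, 1139.6 and 2382 in VEH-WT mice 1 to 3 and 3103, 1325 and 1291 in VEH-CD mice 1 to 3. In VERCUR-WT mice 1 to 3 it was 509, 461 and 3126, and in VERCUR-CD mice 1 to 3 it was 2334, 449 and 455. The same mouse of each group was highest, and every other VERCUR mouse was below every VEH mouse. The gaps between the sets were 2.24-fold and 1.76-fold, and the whole range was 6.97-fold.

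Penk, the enkephalin precursor, had normalized counts of 4138, 3938 and 7672 in VEH-WT mice 1 to 3 and of 8614, 3883 and 4221 in VEH-CD mice 1 to 3. The VERCUR-WT values were 2356, 2162 and 9648, and the VERCUR-CD values were 7874, 2019.8 and 2571, in the same order of mice. Ppp1r1b, the DARPP-32 gene, had 8062, 8825 and 14856 in VEH-WT, 16801, 7552 and 9155 in VEH-CD, 4234, 5059.8 and 16739 in VERCUR-WT and 12633, 4580.1 and 5540.4 in VERCUR-CD mice 1 to 3. Both genes again separated the same 3 sets of mice. Their gaps were narrower, 1.51-fold and 1.82-fold for Penk and 1.36-fold and 1.38-fold for Ppp1r1b, and the highest mouse exceeded the lowest 4.78-fold and 3.97-fold. The lowest 4 mice still had 2019.8 to 2571 normalized counts of Penk and 4234 to 5540.4 of Ppp1r1b, compared with 93.5 to 179 of Adora2a.

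**Figure D1:**
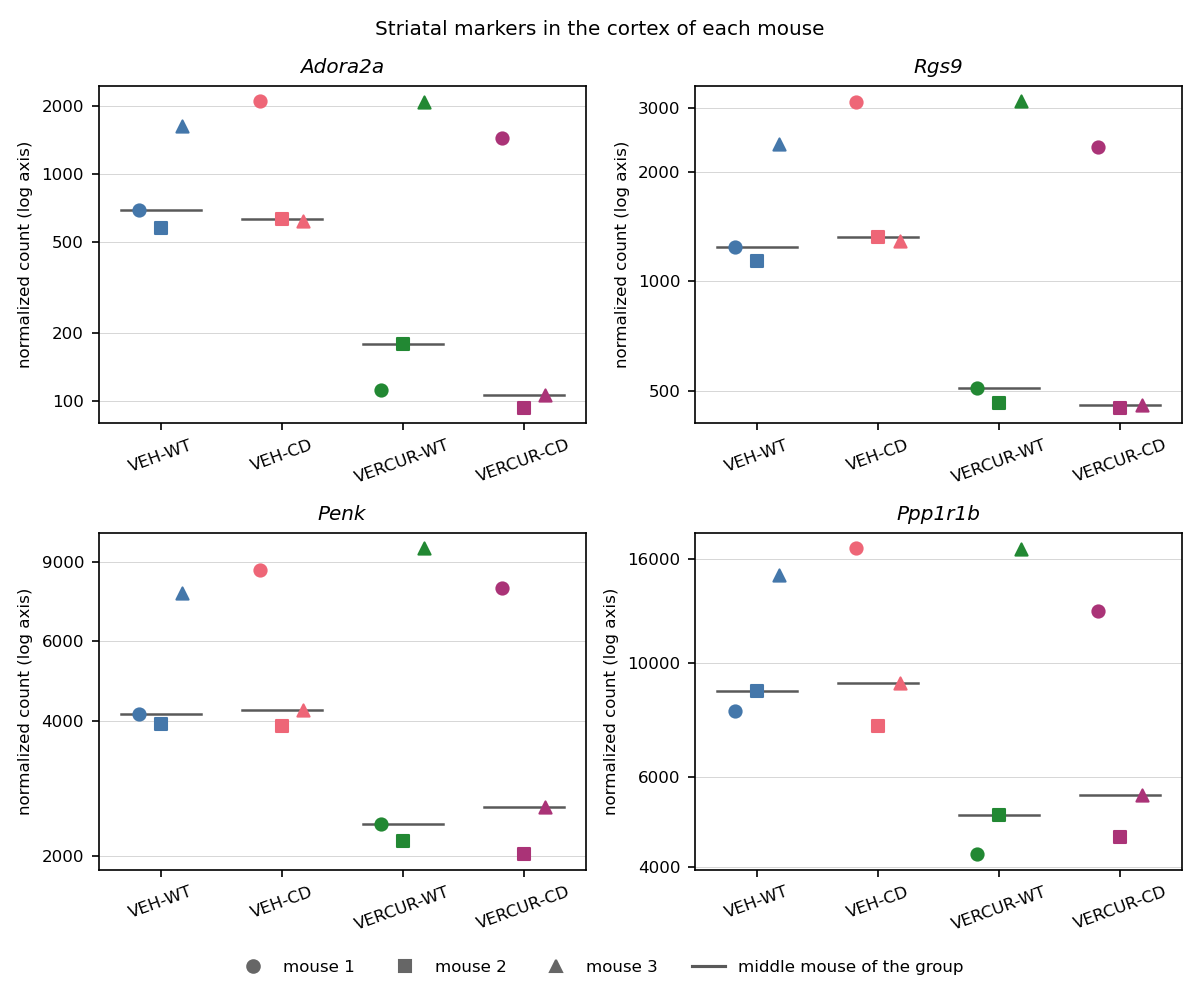
Normalized counts (vertical, log axes) of Adora2a, Rgs9, Penk and Ppp1r1b in each of the 12 mice by group; each point is 1 mouse, its shape gives the mouse number and the line marks the middle mouse of the group. In every panel, 1 mouse per group lies at the top and 2 of the 3 mice of each VERCUR group lie below every VEH mouse, down to 93.5 for Adora2a.

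The depth of the libraries did not follow these sets. The highest mice had 42250000 to 56480000 reads counted, the middle mice 40290000 to 54240000 and the lowest mice 40950000 to 56460000. The spread within groups was large for all 4 striatal markers. On the log2 scale, the within-group SD was 1.71 for Adora2a, 1.13 for Rgs9, 0.90 for Penk and 0.77 for Ppp1r1b, compared with a median of 0.14 over the 17111 genes tested. It was higher for Adora2a than for 99.8% of these genes, which ranks it 37 from the top, and higher for Ppp1r1b than for 98.7%.

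Other genes of the striatum showed the same order. Of 25 further striatal genes on a fixed list, 17 (68.0%) placed the mice in the same 3 sets without overlap, compared with 74 of all 17111 genes tested (0.432%, the 4 markers included). A further 9 genes (0.0526%) showed the reverse order. The sets were defined by the values of Adora2a, and the list was chosen with earlier results of these data known. These shares are therefore descriptions and carry no test. The 17 included Drd1 and Drd2, the dopamine receptors of both neuron classes, Tac1, the phosphodiesterases Pde10a and Pde1b, the orphan receptor Gpr6, and the transcription factors Six3, Isl1 and Rarb. Drd2 had normalized counts of 1161 to 1671 in the 4 highest mice, 527 to 561 in the middle ones and 49.1 to 75.0 in the lowest. Six3, a transcription factor of D2-class neurons, reached 268 to 374 in the highest mice and 1.92 to 7.41 in the lowest. Isl1, which marks D1-class neurons, was at 36.6 to 71.6 in the highest mice and was 0 in VERCUR-WT mice 1 and 2, a count that allows up to 3 reads.

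The 8 listed striatal genes that did not show this order were Adcy5, Gnal, Foxp1, Chrm4, Oprm1, Pdyn, Ppp1r1a and Rgs14. Adcy5 and Gnal, which act in dopamine receptor signaling, and Pde1b had the highest means of the list, at 13130, 10408 and 9582 normalized counts. Adcy5 ranged from 9795 to 18434, and its 4 highest mice were the same as for Adora2a. Pdyn, the dynorphin precursor, ranged only from 1191 to 1494, and Rgs14 from 2137 to 2728. The sum over the 25 genes ran from 56159 in VERCUR-WT mouse 1 to 112002 in VERCUR-WT mouse 3, 2 mice of the same group.

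**Figure D2:**
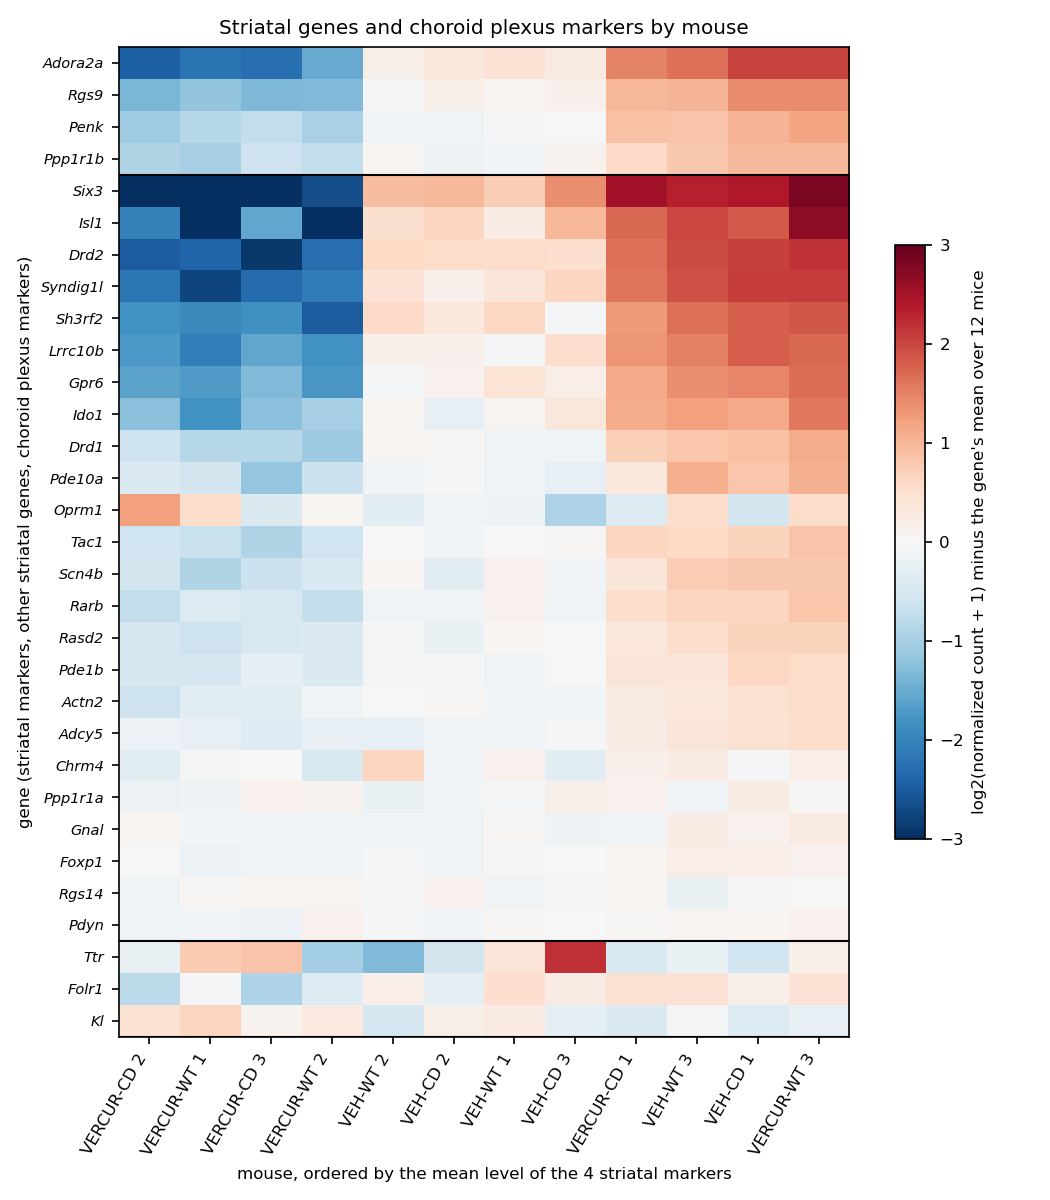
Level of each of the 4 striatal markers, the other listed striatal genes except 1 and the 3 choroid plexus markers (rows) in each mouse (columns, ordered by the mean level of the 4 striatal markers), as log2(normalized count + 1) minus the gene's mean over 12 mice; colours stop at -3 and 3. The first 4 columns are VERCUR mice 2 and 3 of CD and 1 and 2 of WT, and the last 4 hold 1 mouse of each group. None of the 3 choroid plexus markers places the mice in the 3 sets of the striatal markers.

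By a fixed measure of likeness, Pearson's r with the mean log2 level of the 4 striatal markers over 12 mice, the genes most like them were Rxrg (0.995), a retinoid receptor gene of the striatum, Lrrc10b (0.991), Gpr6 (0.991), Syndig1l (0.988) and Cd4 (0.986). These coefficients are descriptions and carry no test, since the genes were picked as the highest of all genes over mice that stand in 3 separate sets. In all, 85 genes had r above 0.9 and 8 had r below -0.9. Rxrg ranged from 262 to 1252 normalized counts and Cd4 from 52.8 to 623.

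None of the 3 choroid plexus markers placed the mice in the 3 sets of the striatal ones. Ttr, the transthyretin gene, lies at chr18:20665280-20674321 on the plus strand. It had normalized counts of 21.3, 5.77 and 13.9 in VEH-WT, 10.3, 10.6 and 76.7 in VEH-CD, 28.5, 7.41 and 18.1 in VERCUR-WT and 11.3, 13.5 and 29.8 in VERCUR-CD mice 1 to 3. VEH-CD mouse 3 stood far above every other mouse (29.8 at most), and the 4 groups overlapped. The values rested on 5 to 64 reads per mouse, and Ttr ranged 13.3-fold, with a within-group SD of 1.08 on the log2 scale. Red blood cell genes were also highest in VEH-CD mouse 3, where their sum was 35997 compared with 17575 to 26911 in the other mice; the part of blood in this value was not tested.

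Folr1, the folate receptor gene, was close to the limit of detection. It had normalized counts of 14.6, 11.55 and 13.9 in VEH-WT, 11.4, 7.95 and 11.98 in VEH-CD, 9.50, 7.41 and 13.8 in VERCUR-WT and 14.0, 5.40 and 4.81 in VERCUR-CD mice 1 to 3, from 5 to 16 reads. The groups overlapped, and at this depth smaller differences were not detectable. Kl, the klotho gene, had 87.4, 52.0 and 70.4 in VEH-WT, 54.8, 83.0 and 61.1 in VEH-CD, 115, 90.8 and 62.1 in VERCUR-WT and 54.1, 102 and 79.9 in VERCUR-CD mice. It varied least of the 7 markers, 2.22-fold over all mice.

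**Figure D3:**
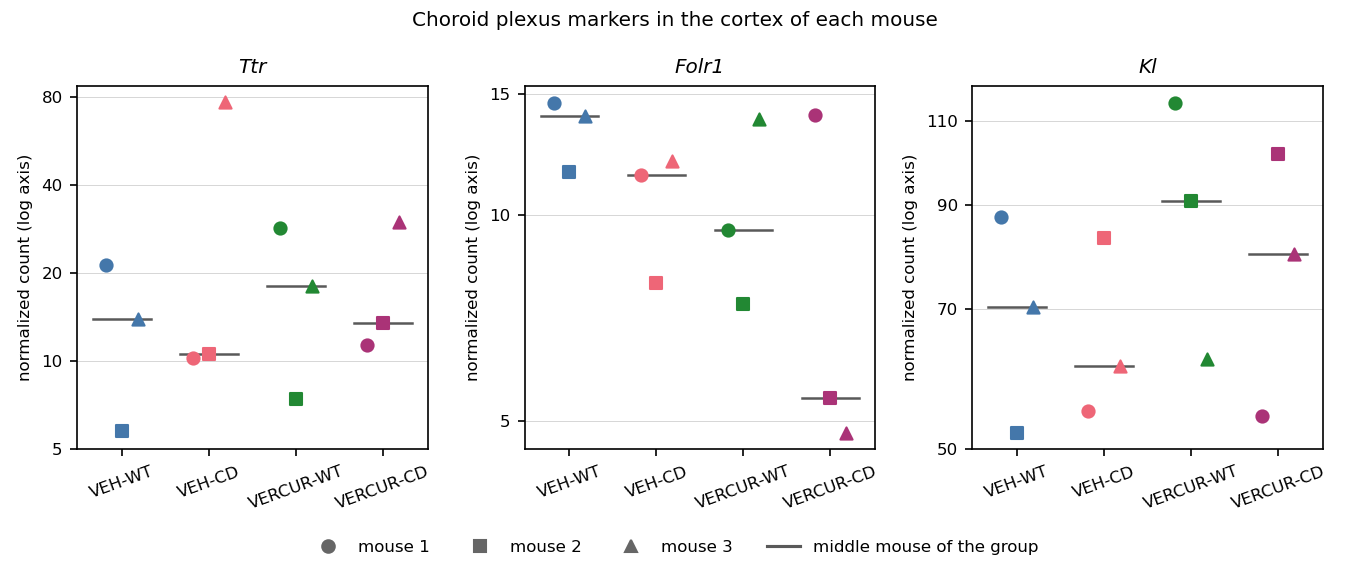
Normalized counts (vertical, log axes) of Ttr, Folr1 and Kl in each of the 12 mice by group; each point is 1 mouse, its shape gives the mouse number and the line marks the middle mouse of the group. Ttr is highest in VEH-CD mouse 3 (76.7), Folr1 stays below 14.6 in all but the highest mouse, and the groups overlap for all 3 genes.

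Of 25 further choroid plexus genes on a fixed list, only 13 were among the genes of the table of normalized counts, so the rest could not be followed. None of the 13 placed the mice in the 3 sets of the striatal genes. Single genes ranged from 1.22-fold to 16.0-fold between the highest and the lowest mouse, for Enpp2 and Clic6. Enpp2, Car12 and Slc13a4 had the highest means, 9954, 492 and 479, and Enpp2, which made up most of the sum over the list, is also made by oligodendrocytes. Without it, the other 12 genes summed to 1216 to 1609.5 normalized counts, 1.32-fold. Genes closer to the choroid plexus epithelium were low in every mouse. Kcnj13, its potassium channel, ranged from 21.6 to 39.2, Aqp1, its water channel, from 7.19 to 25.2 and Prlr from 10.8 to 32.2. Clic6 spread more, from 4.63 to 74.2, and its 4 highest mice were the same as for Adora2a.

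Markers of the same tissue were then compared pair by pair over the 12 mice. All 6 pairs of striatal markers passed (permutation test with 100000 resamples on Pearson's r, two-sided, Benjamini-Hochberg over 21 pairs, adjusted p of 7e-05 to 0.000175, all in the same direction). None of the 3 pairs of choroid plexus markers passed, and with the unadjusted permutation p none was below 0.05. Of the 12 mixed pairs, 8 passed on Pearson's r, those of Folr1 with the 4 striatal markers (higher together) and those of Kl with the 4 striatal markers (in opposite directions), whereas Ttr passed with none. On Spearman's rho, the 6 striatal pairs passed again and 5 of the 12 mixed pairs did, without Folr1 with Ppp1r1b (permutation test, adjusted p = 0.0551), Kl with Adora2a (0.0945) and Kl with Rgs9 (0.0888). Because the mice stand in 3 separate sets of 4, too few for a correlation within a set, no coefficient is given for pairs with a striatal marker, and these tests speak to the shared sets and not to a graded relation. The markers were chosen with earlier results of these data known, which these p values do not take into account, and mice were resampled across groups. On deviations from the group means, 6 striatal pairs, 8 mixed pairs and 1 choroid plexus pair passed. Folr1 rests on few reads. For Ttr and Folr1, Pearson's r was 0.01 and Spearman's rho 0.10 (permutation p = 0.982 and 0.767, adjusted 0.982 and 0.807), and r was -0.09 without the 2 mice farthest from the median of Ttr. For Ttr and Kl, r was 0.18 and rho 0.27 (permutation p = 0.590 and 0.390, adjusted 0.747 and 0.512), and r was 0.34 without those mice. For Folr1 and Kl, r was -0.55 and rho -0.45 (permutation p = 0.0672 and 0.146, adjusted 0.0941 and 0.204), and r was -0.50 without the 2 mice farthest from the median of Folr1.

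The groups were next compared with limma across all genes, and a gene was called where the Benjamini-Hochberg adjusted p was under 0.05 and the level changed by more than 25%. Between VEH-CD and VEH-WT mice, which differ in genotype alone, 0 of the 7 markers were called, compared with 0.257% of all genes, and 0 had an unadjusted p under 0.05, as did 11.8% of genes. The log2 fold changes of the striatal markers were 0.11 ± 1.12 (SE, n = 3 mice per group) for Adora2a, 0.22 ± 0.74 for Rgs9, 0.06 ± 0.59 for Penk and 0.05 ± 0.50 for Ppp1r1b. Each group held 1 high mouse, and the direction turned for all 4 when VEH-CD mouse 1 was left out (-0.46 for Adora2a). Ttr differed by 0.72 ± 0.73, Folr1 by -0.34 ± 0.39 and Kl by -0.07 ± 0.28. The difference in Ttr rested on VEH-CD mouse 3 and was -0.20 without it. The 95% interval for Adora2a ran from -2.31 to 2.54, so that differences of several fold in either direction are within it.

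Between VERCUR-CD and VERCUR-WT mice, 0 of 7 markers were called, compared with 0.146% of genes, and 0 had an unadjusted p under 0.05, as did 4.1% of genes. For CD against WT over both treatments, 0 of 7 markers and 0.321% of genes were called, and an unadjusted p under 0.05 was found for 0 markers and 9.64% of genes. The smallest adjusted p of a marker with limma was 0.9999 in the former comparison and 0.736, for Folr1, in the latter.

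The co-treatment was compared next, within each genotype and over both. Between VERCUR-CD and VEH-CD mice, 0 of 7 markers and 0% of genes were called, and 0 markers had an unadjusted p under 0.05, as did 3.54% of genes. Adora2a was lower by a log2 fold change of -1.94 ± 1.12, Rgs9 by -1.16 ± 0.74, Ppp1r1b by -0.62 ± 0.50 and Penk by -0.60 ± 0.59, none of which passed (limma, adjusted p of 0.867 to 0.878). Without VERCUR-CD mouse 1, the high mouse of its group, these values were -3.22, -1.95, -1.06 and -1.19, with adjusted p values from limma of 0.317 to 0.377. Without VEH-CD mouse 1, by contrast, the values for Rgs9, Ppp1r1b and Penk shrank to -0.74, -0.28 and -0.23. Without VERCUR-CD mouse 2, those for Adora2a, Rgs9, Ppp1r1b and Penk shrank to -1.26, -0.76, -0.33 and -0.21. Without VERCUR-CD mouse 3, those for Rgs9 and Penk shrank to -0.77 and -0.38. Adora2a shrank too without VEH-CD mouse 1 or VERCUR-CD mouse 3, as did Ppp1r1b without VERCUR-CD mouse 3. Over all mice left out, Adora2a ran from -3.22 to -1.26.

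Between VERCUR-WT and VEH-WT mice, 0 of 7 markers and 0% of genes were called, and 0 markers had an unadjusted p under 0.05, as did 5.22% of genes. The log2 fold changes were -1.32 ± 1.12 for Adora2a, -0.73 ± 0.74 for Rgs9, -0.52 ± 0.50 for Ppp1r1b and -0.45 ± 0.59 for Penk (limma, adjusted p = 0.999 each). Leaving out VERCUR-WT mouse 3, which was high for all 4, gave -2.61, -1.63, -1.14 and -1.15, with adjusted p values from limma of 0.515 to 0.633. The same values, in the order Adora2a, Rgs9, Ppp1r1b and Penk, shrank to -0.86, -0.40, -0.25 and -0.14 without VEH-WT mouse 3. They were -0.50, -0.32, -0.15 and -0.13 without VERCUR-WT mouse 1, and -0.84, -0.25, -0.27 and -0.07 without VERCUR-WT mouse 2. None of these fits called a marker.

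Over both genotypes, the mean log2 levels of the 4 striatal markers were lower in VERCUR than in VEH mice, but by less than the spread between mice allows to call. Not every VERCUR mouse was low: VERCUR-WT mouse 3 had the highest Penk (9648) and Rgs9 (3126) of all mice. The log2 fold changes were -1.63 ± 0.79 for Adora2a (95% interval -3.34 to 0.08), -0.94 ± 0.52 for Rgs9, -0.57 ± 0.36 for Ppp1r1b and -0.52 ± 0.42 for Penk. Those of Ttr, Folr1 and Kl were 0.03 ± 0.52, -0.42 ± 0.27 and 0.28 ± 0.20. With limma, 0 of 7 markers and 0% of genes were called, the adjusted p was 0.9998 for every marker, and the smallest unadjusted p was that of Adora2a, 0.0602. An unadjusted p under 0.05 was found for 0 of 7 markers and 2.96% of genes. Among the 25 other striatal genes the median log2 fold change was -0.42, compared with 0.00 over all genes, 22 were lower, 0 were called and 4 had an unadjusted p under 0.05. Oligodendrocyte genes were lower in 8 of 8 (median -0.29). Their median was -0.49 for VERCUR-WT against VEH-WT (lower in 8 of 8) and -0.08 for VERCUR-CD against VEH-CD (lower in 7 of 8). The sum of these genes was lowest in VERCUR-WT mouse 1, at 80120, compared with 131611 and 206381 in VERCUR-WT mice 2 and 3. Meningeal fibroblast genes were higher in 11 of 12 (median 0.16). No gene of these lists was called, and their part in the values of the striatal markers was not tested. The genotype by treatment interaction was called for 0 of 7 markers and 0% of genes, with an unadjusted p under 0.05 for 0 markers and 6.05% of genes, and the limma estimate for Adora2a was -0.63 ± 1.58.

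**Figure D4:**
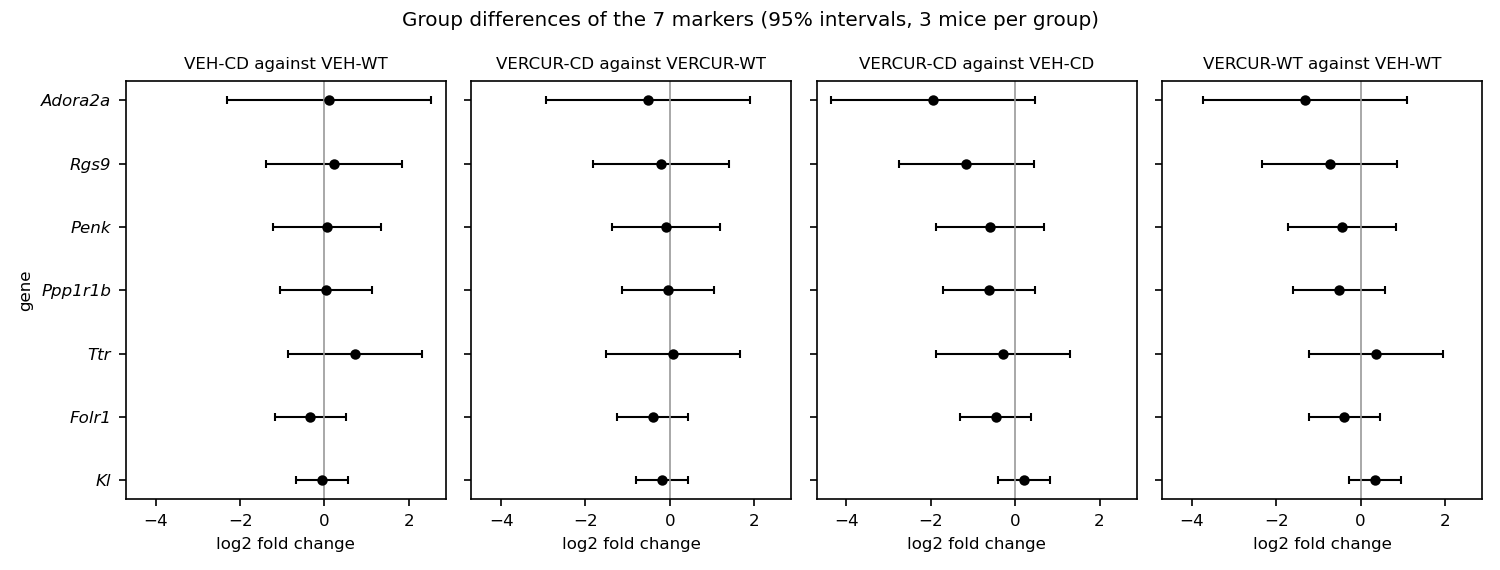
Log2 fold changes (horizontal) of the 7 markers in 4 comparisons, as points with 95% intervals from limma, 3 mice per group. All intervals include 0, and the widest are those of Adora2a, such as -2.31 to 2.54 for VEH-CD against VEH-WT.

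Finally, the level of the markers in each mouse was entered as a covariate in the fit over all genes, to see how far the calls between groups depend on it. With the mean log2 level of the 4 striatal markers as a covariate, the number of genes called between VEH-CD and VEH-WT went from 44 to 48, of which 43 were shared. With Ttr as the covariate it went to 30, of which 28 were shared, and with both covariates to 34. The calls between VERCUR-CD and VERCUR-WT mice numbered 25 without a covariate, 29 with the striatal markers and 25 with Ttr, and in both of these fits all 25 were shared. Between VERCUR-CD and VEH-CD, where none was called without a covariate, 1 gene was called with the striatal markers. This was Bc1, a brain cytoplasmic RNA gene, named here after its values were seen. Its log2 fold change was 2.33 ± 0.25 (limma, adjusted p = 0.0117), compared with 2.07 without the covariate (limma, adjusted p = 0.159, unadjusted p = 9.3e-06). Without a covariate, 1, 1 and 2 genes were called in this comparison when VEH-WT mouse 2, VEH-WT mouse 3 or VERCUR-CD mouse 2 was left out. No gene was called between VERCUR-WT and VEH-WT with either covariate, and 893 had an unadjusted p under 0.05 without one. The number of calls between VEH-CD and VEH-WT was itself sensitive to single mice: it was 23, 26, 24 and 24 without VEH-WT mouse 2, VEH-WT mouse 3, VEH-CD mouse 1 and VEH-CD mouse 3, and 71 without VERCUR-CD mouse 2.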

How the data were processed

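Cortical RNA of 12 mice, 3 per group, was sequenced. Mice were assigned to groups from the sample labels. Normalized counts per gene and mouse, scaled by 1 factor for each mouse, were deposited by the authors after alignment with STAR 2.5.3a (genome GRCm38); the counting program, annotation and normalization are not given in the sources used here. The deposited values are not raw counts, but 100% of low values in each mouse were whole multiples of 1 step (within 0.1 of a step), which gave the number of reads counted. Further deposited tables hold values relative to the VEH-WT mean for genes the authors selected and were not used.

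For 17111 genes whose mean was 10 or more, log2(normalized count + 1) was modelled with limma 3.58.1 (R 4.3.3), using 4 group means and an intensity trend; fold changes are on this scale, which understates those of low genes. The p values were two-sided and Benjamini-Hochberg adjusted over all genes tested. With 3 mice against 3, an exact permutation test cannot go below p = 0.1 and none was run for single genes. The within-group spread is an SD on the log2 scale. Lengths are exonic lengths of GENCODE M21, in which 17181 of 17202 genes were found. Pairs of markers were compared with Pearson's r and Spearman's rho. Both tests were tested on simulated data. The genes named were the 7 markers, the genes called and the 3 of highest mean on each of 13 lists, and the 5 genes most like the striatal markers and Ttr; others named from the lists, and the genes of the deleted region, were picked after their values were seen. The markers and lists were chosen with earlier results of these data known. As alternatives, the pseudocount was set to 0.1 or 5, the minimum mean to 50 or dropped, and values were quantile normalized or centred on the median log2 ratio. Others were fits of the groups compared alone, no trend, the replicate number as a block, deviations from group means, and leaving out each mouse. Some single genes of these lists are not reported here.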

Additional observations from a re-analysis of the deposited data

How the results depend on the processing

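No marker was called in any of the 7 comparisons under any alternative, and the smallest adjusted p of a marker over all of them was 0.317. Filters, the trend, the block and fits of fewer groups cannot move a difference of group means. Of the 83 log2 fold changes of the markers that the other settings moved, 1 turned: Ttr between VERCUR and VEH over both genotypes was -0.0075 with a pseudocount of 5. Leaving out 1 mouse of the groups compared turned 19 of 174. For VEH-CD against VEH-WT, the ranges were -0.46 to 0.57 for Adora2a, -0.29 to 0.32 for Ppp1r1b, -0.30 to 0.37 for Penk, -0.20 to 0.55 for Rgs9, -0.20 to 1.196 for Ttr and -0.26 to 0.11 for Kl. For VERCUR against VEH over both genotypes, the range was -0.21 to 0.49 for Ttr, while the 4 striatal markers stayed below 0 (Adora2a from -2.28 to -1.22). Leaving out 1 mouse gave 23 to 71 genes called for VEH-CD against VEH-WT, 0 to 2 for VERCUR-CD against VEH-CD and 0 to 3 for VERCUR-WT against VEH-WT (3 without VERCUR-WT mouse 3). For VERCUR-CD against VEH-CD, 1 gene was called with the striatal covariate and 1 with both covariates, compared with 0. Of the choroid plexus pairs, 0 to 1 passed when 1 mouse was left out, and 1, Folr1 with Kl, passed on deviations from group means (r = -0.62). The causes were not tested.

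Over genes, the deviations of same-numbered mice of different groups from their group means had r of -0.35 to 0.27 (18 pairs, median 0.02). For other-numbered mice of different groups, r was -0.235 to 0.325 (36 pairs, median -0.014). Deviations within a group of 3 mice balance out, so a low r cannot decide whether the numbers pair the mice. With the replicate number as a block, 40, 26, 0 and 0 genes were called, compared with 44, 25, 0 and 0, for the 4 comparisons of 2 groups, and no marker was. A count model on the recovered reads was planned and not run. Folr1 and Ttr rest on 5 to 64 reads per mouse, which limits what could be detected for them, and the single mice that stand high in each group widen the intervals of the striatal markers.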

Other observations

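Genes of other tissues that border the cortex were summed in each mouse from fixed lists, and none of these lists had a gene called in any of the 7 comparisons with limma. Over all 13 lists, which include the striatal ones, 126 genes were tested. An unadjusted p under 0.05 with limma was found for 11.9% of them between VEH-CD and VEH-WT, near the 11.8% of all genes. Between VERCUR and VEH over both genotypes it was found for 6.35%, compared with 2.96% of all genes. Of the 8 genes behind this 6.35%, 4 were on the list of other striatal genes. The lists were chosen with earlier results of these data known, so these shares carry no test. Ependymal genes, which belong to the ciliated lining of the ventricles beside the striatum, summed to 452 to 973 normalized counts, led by Foxj1, Rarres2 and Rsph1. Their highest mice were VERCUR-WT mouse 3 (973), VERCUR-CD mouse 1 (936) and VEH-WT mouse 3 (787), whereas VEH-CD mouse 1, the highest for Adora2a, had 651, below VEH-CD mouse 3 (684) and VEH-WT mouse 1 (677). The lowest sums were those of VERCUR-WT mouse 1 (452), VERCUR-CD mouse 2 (480), VERCUR-WT mouse 2 (539) and VERCUR-CD mouse 3 (597.6). These were also the lowest mice for the striatal markers, though VEH-CD mouse 2 was close in this sum, at 597.8. By the mean log2 level of the ependymal genes, each centred on its own mean, the same 4 mice stood apart. They were at -0.79 to -0.30, and the other mice at -0.05 or more. Single genes differed. Ccdc153 was 0.93 to 1.80 in these 4 mice, down to 1 read, and 10.78 to 69.0 in the others, whereas Fam183b was highest in VERCUR-WT mouse 1 (71.2). None of the 10 ependymal genes tested placed the mice in the 3 sets of the striatal markers.

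Oligodendrocyte genes, which make the myelin of the white matter under the cortex, ranged 2.87-fold in their sum, from 80120 in VERCUR-WT mouse 1 to 229832 in VEH-WT mouse 3, with Mbp and Mobp among the genes of highest mean. Of 8 such genes, 1, Mag, placed the mice in the same 3 sets as the striatal markers. Markers of the cortex itself were steadier. The summed level of cortical excitatory neuron genes (led by Slc17a7, Rasgrf2 and Tbr1) ranged 1.17-fold and that of interneuron genes (led by Gad1, Lamp5 and Sst) 1.19-fold. Thalamic genes (led by Ramp3, Plekhg1 and Slc17a6), hippocampal genes (led by Wfs1, Zbtb20 and Trpc6) and olfactory bulb genes (led by Cdhr1, Th and Sp8) ranged 1.16-fold, 1.29-fold and 1.26-fold. Meningeal fibroblast genes (led by Igf2, Cemip and Fmod) ranged 1.84-fold, from 4801 in VEH-CD mouse 1 to 8813 in VERCUR-WT mouse 1, and red blood cell genes (led by Hbb-bs, Hba-a2 and Hba-a1) ranged 2.05-fold. The part of these tissues in the group comparisons was not tested.

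The sample labels carry running numbers, in which the mice highest for the striatal markers are next to each other, VEH-WT mouse 3 beside VEH-CD mouse 1 and VERCUR-WT mouse 3 beside VERCUR-CD mouse 1. What these numbers stand for is not given in the sources used here. By the same measure of likeness, the genes most like Ttr over 12 mice were Coa7 (Pearson's r of 0.859), Gm15688 (0.854), Itga11 (0.848), Gm17733 (0.846) and Gm49041 (0.825), and none of them is on the list of choroid plexus genes.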
